A study of Saccharomyces cerevisiae with 24 samples.

Results

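The fastest and the slowest pipetting speed that was tested, 290 µL/s and 50 µL/s, were compared in budding yeast cells that a liquid handling robot had aspirated, mixed and dispensed before RNA was taken. The compared libraries were 12 of the 24 of the series, 6 at each speed, and the main fit described below used all 24. Every library at 290 µL/s had a counterpart at 50 µL/s with the same biological and technical replicate number, which gave 6 pairs. The cells of every group were the haploid laboratory strain W303-1B, with the genotype ade2 trp1 can1 leu2 his3 ura3, grown in rich YPD medium. Each of the 2 biological replicates was 1 culture of the same clone, and each culture was sampled in 3 technical replicates at each speed. The groups differed in speed and also in library number, which put 290 µL/s before 50 µL/s within every replicate. A pair is written below by its replicate numbers, for example B1T1 for biological replicate 1 and technical replicate 1. The methods of the study name the mating type MATa, whereas the 12 libraries held STE3, the receptor for a-factor that alpha cells carry, at 283.51 to 391.06 TPM, a unit of relative transcript abundance scaled by gene length, and the alpha-factor gene MF(ALPHA)1 at 3960.13 to 4645.37 TPM. The receptor STE2 of a cells lay at 4.18 to 6.7 TPM and the a-specific protease gene BAR1 at 3.88 to 5.76 TPM, so the markers at both speeds were those of alpha cells.

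Budding yeast adjusts a large share of its transcripts together when growth conditions change. Genes for ribosomal proteins and for ribosome assembly are highly expressed in fast growth and fall when growth slows or a stress is met, while a general stress group that includes HSP12, trehalose and glycogen enzymes and small heat shock proteins moves the other way. Mechanical and osmotic signals reach the nucleus through the cell wall integrity pathway, the HOG (high osmolarity glycerol) pathway and calcium entry. Pipetting exposes cells to shear at the tip, and the comparison asks whether the fastest setting left a mark on the transcripts relative to the slowest.

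Of the 5193 genes in the tables, 5142 were tested, at a depth of 11555784 to 15464458 counts per library. A level is a share of its library, so a change in the amount of RNA per cell would not be seen. Levels are given as CPM (counts relative to the library total) after scaling by the trimmed mean of M values (TMM), and a difference is the log2 fold change of 290 over 50 µL/s with its standard error (SE), from edgeR's quasi-likelihood fit with speed, biological replicate and technical replicate as terms over all 24 libraries. A gene was called at a false discovery rate (FDR, Benjamini-Hochberg) below 0.01. At 290 µL/s 91 genes were higher (1.77% of those tested) and 111 were lower (2.16%), against 1508 genes at an unadjusted p below 0.05. The changes were small, with a median size of 0.20 on the log2 scale among the 202 called genes and a median of -0.01 over all genes. For 95.4% of the genes tested the 95% interval of the difference lay within a 1.5-fold change in either direction. The calls depended on which libraries and terms were in the fit: the 12 libraries at 290 and 50 µL/s fitted alone gave 0 calls with edgeR (998 genes at an unadjusted p below 0.05), and a model with speed and biological replicate only gave 2. DESeq2 over all 24 libraries gave 383.

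**Figure D1:**
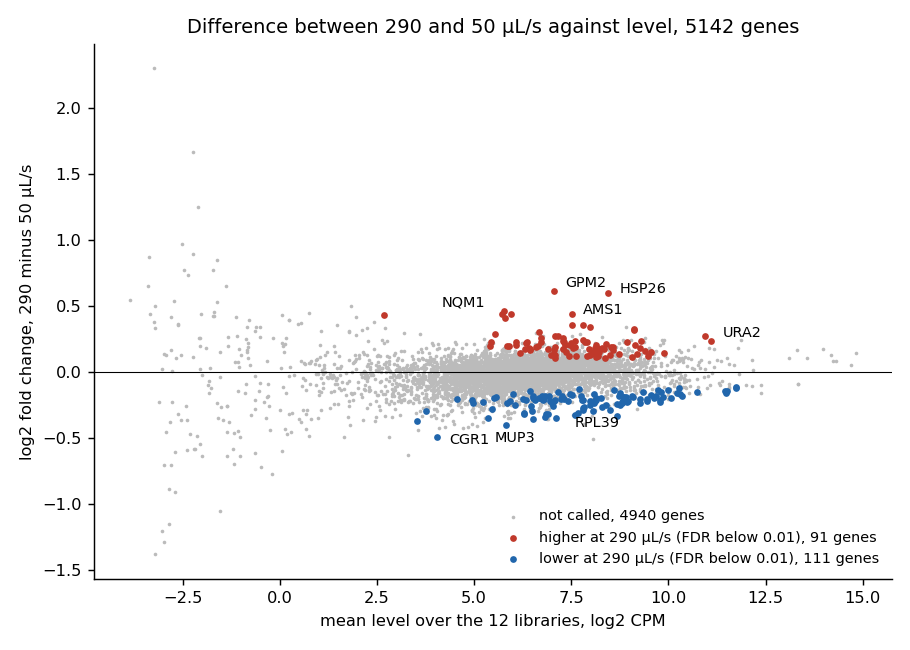
Each point is 1 of the 5142 genes, with its mean level over the 12 libraries on the horizontal axis (log2 CPM) and its log2 fold change of 290 over 50 µL/s on the vertical axis. The 91 genes called higher (red) and the 111 called lower (blue) lie close to the grey cloud, and GPM2 at 0.61 and HSP26 at 0.60 are the called genes farthest from 0.

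The genes that rose with the lowest p were AMS1, URA2, BDH1, HSP12 and URA10. URA2 encodes the large enzyme for the first steps of pyrimidine synthesis, and its level ran from 1903 to 2203 CPM with a median of 2008 CPM at 50 µL/s and from 2072 to 2555 CPM with a median of 2412 CPM at 290 µL/s. It was higher at 290 µL/s in 6 of 6 pairs, by 0.12 in B1T1 and by 0.21 to 0.28 on the log2 scale in the others, and the fitted change was 0.23 (SE 0.03, FDR 0.000125 by edgeR). URA10, a minor form of the orotate phosphoribosyltransferase of the same pathway, rose by 0.44 (SE 0.06, FDR 0.000463), from a median of 44.26 CPM to 58.51 CPM. Among the 10 measured genes of the pathway these were the only calls, and URA7, a CTP synthase gene, had a fitted change of -0.31 (SE 0.13, FDR 0.125).

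AMS1 encodes the vacuolar alpha-mannosidase and had the lowest p of all genes. It lay between 98.4 and 208.1 CPM with a median of 154.8 CPM at 50 µL/s and between 157.2 and 278.1 CPM with a median of 215.6 CPM at 290 µL/s, a rise of 0.44 (SE 0.05, FDR 7.29e-05). The rise was 0.06 in B1T1 and 0.38 to 0.68 in the other 5 pairs, although the 2 groups overlapped because the level of AMS1 also differed between replicates. Other vacuolar and carbon genes that rose were BDH1, a butanediol dehydrogenase gene (0.32, SE 0.04), RNY1, a vacuolar RNase gene (0.24, SE 0.05), and the transaldolase paralog NQM1 (0.46, SE 0.07). NQM1 ranged from 27.37 to 76.22 CPM at 50 µL/s and from 39.29 to 89.95 CPM at 290 µL/s, so the range over replicates was wider than the change in any pair.

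**Figure D2:**
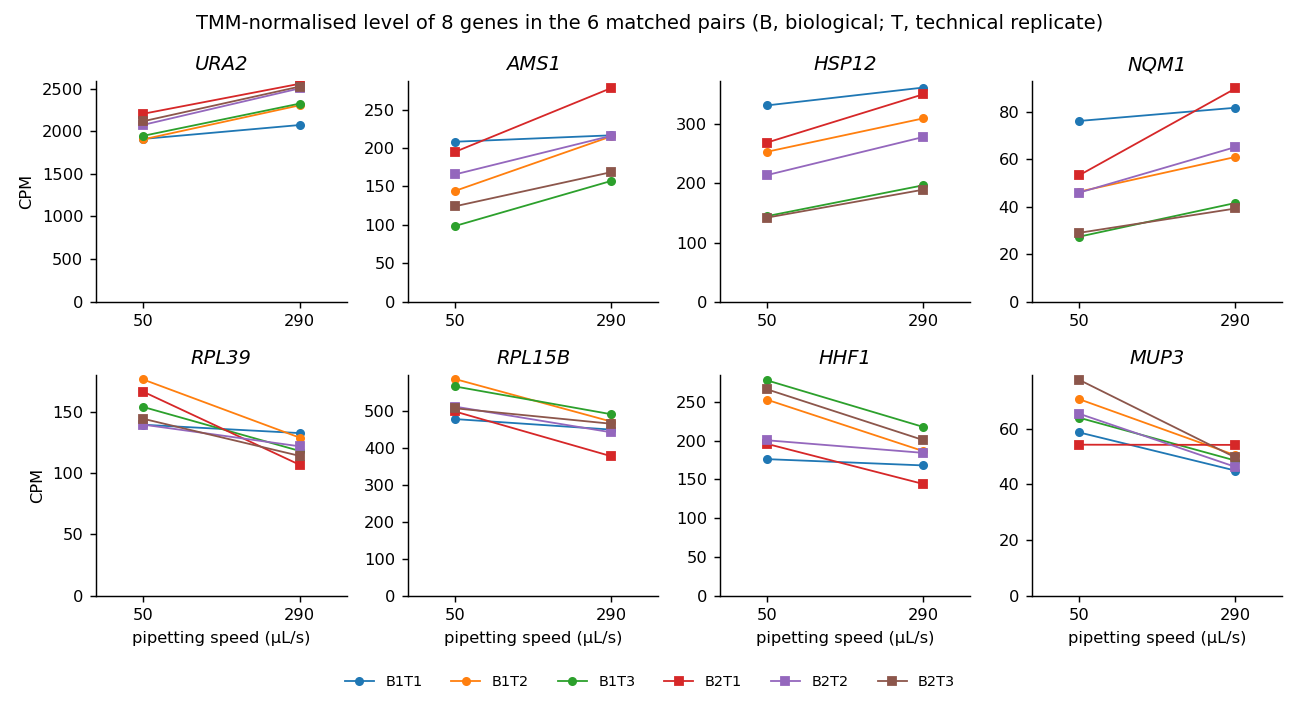
The TMM-normalised level (CPM, vertical axes from 0) of 8 genes is joined between 50 and 290 µL/s for each of the 6 pairs, with circles for biological replicate 1 and squares for biological replicate 2. The lines rise for URA2, AMS1, HSP12 and NQM1 and fall for RPL39, RPL15B, HHF1 and MUP3, the line of B1T1 is among the flattest in most panels, and that of MUP3 in B2T1 is level.

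Of the 43 general stress genes measured, 8 rose, 0 fell and 35 did not pass, against 1.77% higher and 2.16% lower over all genes. In this list 38 had a positive fold change, and the median was 0.14 against -0.01 over all genes. HSP12, which encodes a small membrane-associated stress protein, lay between 142.2 and 332.2 CPM (median 234.0) at 50 µL/s and between 189.6 and 362.5 CPM (median 294.6) at 290 µL/s. It rose in 6 of 6 pairs by 0.34 in the fit (SE 0.05, FDR 0.000240). The enzymes that release glucose from glycogen rose as well: GDB1, the debranching enzyme, by 0.33 (SE 0.07) and GPH1, the phosphorylase, by 0.27 (SE 0.06). The glycogen synthase gene GSY2 (0.23, SE 0.06) and the trehalase gene NTH1 (0.18, SE 0.04) were called close to the threshold, at FDR 0.00985 and 0.00986. HSP26, a small heat shock protein gene, had the second largest change among called genes, from a median of 266.7 to 396.1 CPM (0.60, SE 0.09, FDR 0.000635), and was higher in 5 of 6 pairs. The median of the 43 genes was not stable from pair to pair: it was -0.04 in B1T1, -0.07 in B2T3, and 0.14 to 0.43 in the other 4 pairs. The 8 calls became 3 without either library of B2T1, either library of B1T2 or the 50 µL/s library of B1T3, 4 without the 290 µL/s library of B2T2, 5 without that of B1T3 and 13 without that of B1T1. With the library number in place of the technical replicate the median was 0.06 with 0 calls. Other well known members did not pass the test, such as the catalase gene CTT1 (0.14, SE 0.18, FDR 0.680).

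Classical heat shock chaperones moved in both directions. Of 25, 3 rose (HSP26, SSA4 and SSA3) and 1 fell (CUR1, a factor that sorts misfolded proteins), and their median was -0.02. Over all genes 1.77% were called higher and 2.16% lower. The inducible Hsp70 gene SSA4 ran from 137.6 to 334.5 CPM at 50 µL/s and from 154.4 to 350.8 CPM at 290 µL/s (0.25, SE 0.05, FDR 0.00573). HSP104, the disaggregase gene, had a change of 0.18 (SE 0.06, FDR 0.0537). Of 32 antioxidant genes 3 rose, the glutathione transferase gene GTT1, the glutathione reductase gene GLR1 and the mitochondrial thioredoxin reductase gene TRR2, while SKN7, a transcription factor of the oxidative stress response, fell by 0.20 (SE 0.04, FDR 0.00276).

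Glycolytic and fermentative genes had a positive fold change in 20 of 20 cases with a median of 0.11, yet 0 passed the FDR threshold by edgeR (9 at an unadjusted p below 0.05; 1 called by DESeq2 and 0 by limma-voom). The nearest was HXK1, a hexokinase gene, whose median went from 3534 to 4229 CPM (0.24, SE 0.07, FDR 0.0211). The list's median was -0.14 in B1T1 and 0.06 to 0.27 in the other 5 pairs. Outside the lists, genes of sugar phosphate metabolism were called, of which GPM2 and GND2 are named here after their values were seen: GPM2 is a phosphoglycerate mutase homolog with the largest change of any called gene (0.61, SE 0.13, FDR 0.00442; 5 of 6 pairs), and GND2 is the minor phosphogluconate dehydrogenase (0.44, SE 0.08, FDR 0.00113; 5 of 6 pairs).

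Ribosomal protein genes made up 41 of the 111 genes that fell. Of the 67 cytosolic ribosomal protein genes measured, 41 fell and 0 rose, against 2.16% lower and 1.77% higher over all genes. All 67 had a negative fold change, and 44 were lower in 6 of 6 pairs, as were 273 of the 5142 genes. The fold changes ran from -0.35 to -0.07 with a median of -0.18. RPL39, which encodes a very small protein of the large subunit, lay between 139.4 and 176.3 CPM (median 149.1) at 50 µL/s and between 106.8 and 132.5 CPM (median 119.9) at 290 µL/s. The 2 groups did not overlap, as was the case for 0.311% of all genes in either direction, and the fitted change was -0.35 (SE 0.06, FDR 0.000638). RPL15B ran from 477.4 to 585.7 CPM (median 508.8) at 50 µL/s and from 376.7 to 490.3 CPM (median 456.7) at 290 µL/s, a fall of 0.23 (SE 0.03, FDR 0.000215), and its groups overlapped. RPS27A fell by 0.32 (SE 0.05, FDR 0.000555). Many of these genes have a near-identical second copy, so the split of reads within a pair such as RPS26A and RPS26B is uncertain.

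The fall of the ribosomal protein genes was uneven over the pairs, and single libraries decided many calls. The 41 calls became 17 without the 290 µL/s library of B2T1 or of B1T3, 18 without the 50 µL/s library of B2T1, 19 without the 290 µL/s library of B1T2, 22 without the 50 µL/s library of B1T2 or of B1T3 or the 290 µL/s library of B2T3, and 25 without the 290 µL/s library of B2T2. The count was 45 without the 290 µL/s library of B1T1 and 55 without its 50 µL/s library. Without the 50 µL/s library of B2T2 it was 47, and without that of B2T3 it was 41. With 1 library left out the list's fitted median lay between -0.20 and -0.14. Leaving out both libraries of B2T1 gave 9 calls, and the library number in place of the technical replicate gave 1, with a median of -0.15. The list's median was -0.06 in B1T1, -0.07 in B2T2, -0.11 in B2T3, -0.21 in B1T3, -0.30 in B1T2 and -0.32 in B2T1. As a share of all transcripts, their summed TPM at 290 µL/s was 100.2% of that at 50 µL/s in B1T1, 86.1% in B1T2, 89.5% in B1T3, 84% in B2T1, 94.4% in B2T2 and 96.8% in B2T3. Leaving the ribosomal protein genes out before normalization left 125 calls among the other genes, against 161 with them in.

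These are also short genes, and a short gene yields fewer counts when the fragments in a library are longer. The mean fragment length was 182.5 ± 3.12 bases (SD, n = 6) at 50 µL/s and 187.0 ± 1.81 bases (SD, n = 6) at 290 µL/s, longer at 290 µL/s in 5 of 6 pairs (exact paired permutation test, two-sided, p = 0.0625; the smallest p that 6 pairs allow is 0.0312). The effective length of a gene, the number of positions at which a fragment of the library could start, moved with it. For RPL39, with a coding length of 156 bases, it was 14.84 to 17.31 positions at 50 µL/s and 13.42 to 14.61 at 290 µL/s. The pair without a longer fragment at 290 µL/s was B1T2, at 185.73 bases against 186.98 bases at 50 µL/s. There the effective length of RPL39 was 14.61 positions at 290 µL/s against 14.84 at 50 µL/s. In that pair RPL39 differed by -0.45, and the median of the ribosomal protein list was -0.30. Whether fragment length caused the fall was not tested. An offset for the effective length of each gene in each library, chosen after seeing the data, reduced the change of RPL39 to -0.19 (SE 0.05, FDR 0.022), which no longer passed, whereas HSP12 went to 0.37 and RPL15B to -0.22, both still called. With that offset 163 genes were called, 158 of them among the 202, and 22 of the 67 ribosomal protein genes fell, with a median of -0.16.

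The calls were unevenly spread over coding length, mainly at the 2 ends. Over all genes Spearman's rho between coding length and log2 fold change was 0.17, a description across genes, which are not independent. Split by coding length into 10 groups of about equal number, the shortest genes, 156 to 498 bases, had 40 falls and 2 rises with a median change of -0.06, and the longest, 2838 to 14733 bases, had 24 rises and 4 falls with a median of 0.03. Groups 3 to 9 had medians between -0.01 and 0.01 with calls in both directions, and in B1T1 the shortest genes had a median of 0.01. The 91 genes called higher had a median coding length of 1572 bases, the 111 called lower 678 bases, and all genes 1281 bases. Without ribosomal protein genes the genes called lower had a median of 1321.5 bases. Speed and fragment length moved together in these libraries, and with mean fragment length as a further covariate 7 genes were called, AMS1, BDH1, HSP12 and URA2 higher and RPL6B, SSK1 and YEL053W-A lower.

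**Figure D3:**
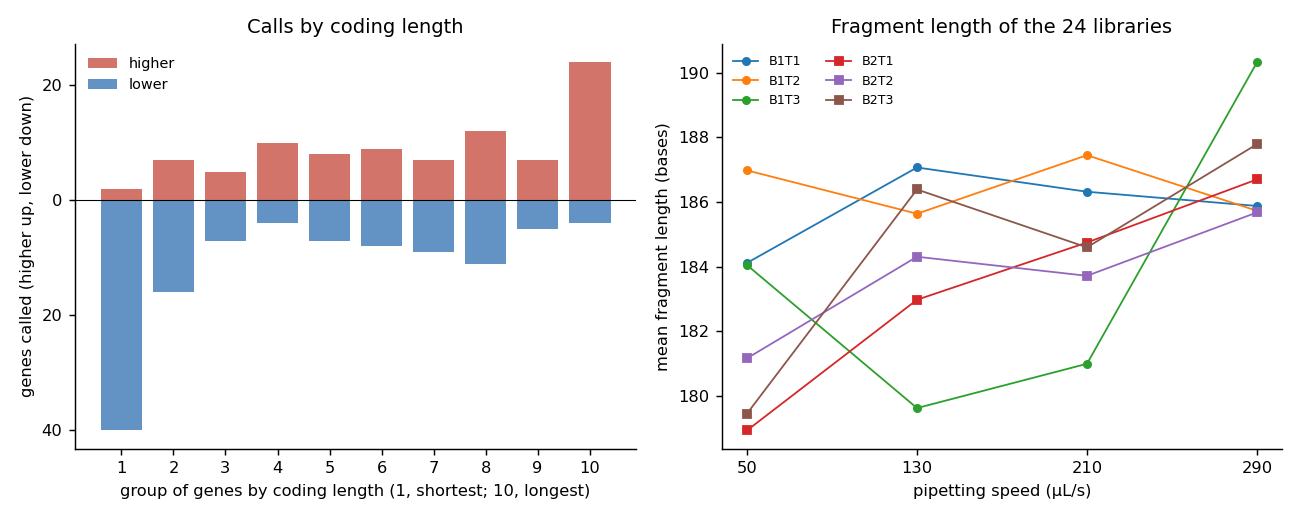
The left panel counts the genes called higher (red, upward) and lower (blue, downward) in each of the 10 groups by coding length, from 40 called lower among the shortest genes to 24 called higher among the longest. The right panel gives the mean fragment length (bases) of the 24 libraries by speed, with 1 line per replicate, and the libraries at 290 µL/s lie between 185.68 and 190.32 bases against 178.94 to 186.98 at 50 µL/s.

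Genes that build ribosomes had a similar median to the genes of the ribosome itself and fewer calls. Their share called lower was near the 2.16% over all genes. Of the 149 ribosome biogenesis genes, 148 had a negative fold change and the median was -0.19, close to that of the ribosomal proteins, and 3 fell: GAR1, a small nucleolar RNA-binding protein gene, TIF6, a 60S maturation factor gene, and CGR1, a gene of pre-rRNA processing. The list's median moved from 0.28 in B1T1 to -0.65 in B1T3, and lay between -0.22 and -0.06 in the other 4 pairs, so the 2 extreme pairs had opposite signs. The number that fell depended on the pairs: it was 30 without the 290 µL/s library of B1T1, 19 without its 50 µL/s library and 62 without both, 53 within biological replicate 2, and 0 to 2 without the 290 µL/s library of any other pair. With the library number in place of the technical replicate the median was -0.08 with 0 calls. CGR1 went from a median of 17.70 to 13.82 CPM (-0.49, SE 0.10, FDR 0.00276; lower in 5 of 6 pairs). The 19 subunits of RNA polymerases I and III were 19 of 19 negative with a median of -0.22 and 1 call, RPA49. Of 39 translation factor genes 5 fell and 0 rose, among them SUI1, the start codon factor eIF1 (-0.22, SE 0.05), and the helicase gene DED1 (-0.21, SE 0.04). EFT1 and EFT2 both encode elongation factor 2 and fell by 0.12 each, and since they are near-identical the counts of the 2 are not separate evidence. The 65 mitochondrial ribosomal protein genes and the 19 tRNA synthetase genes had 0 calls by edgeR and medians of -0.03 each (1 and 8 at an unadjusted p below 0.05; 0 and 3 called by DESeq2, 0 and 0 by limma-voom).

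Of 9 histone genes 6 passed the test, all of them lower core histone genes, against 2.16% called lower over all genes. The list median was -0.22. HHF1, a gene for histone H4, ran from 176.0 to 277.7 CPM (median 226.5) at 50 µL/s and from 144.0 to 217.4 CPM (median 185.2) at 290 µL/s, and it fell in 6 of 6 pairs (-0.31, SE 0.05, FDR 0.000635). HHF2, HTB1, HTB2, HTA2 and HHT1 fell by 0.19 to 0.26. The linker histone gene HHO1 (-0.06, SE 0.04), the variant HTZ1 (-0.10, SE 0.05) and the centromeric CSE4 (0.05, SE 0.05) did not pass. In B1T1 the list's median was 0.02, and HTB1, HTB2, HTA2 and HHT1 were higher at 290 µL/s in that pair by 0.02 to 0.07 and lower in the other 5. With the effective length offset 5 of the 6 kept their call and HHT1 did not (-0.17, SE 0.04, FDR 0.0143). The core histone genes are short, and the pairs of genes for 1 histone are nearly the same in sequence. Among cell cycle regulators, 1 of 28 was called, the G1 cyclin gene CLN3 (-0.22, SE 0.04, FDR 0.00341), and 1 of 52 DNA replication genes fell, TAH11, a licensing factor gene, while the ribonucleotide reductase gene RNR2 rose by 0.15 (SE 0.03). Single calls in lists of this size are near the 2.16% lower and 1.77% higher over all genes. Outside these lists CIP1, a gene for an inhibitor of the cell cycle kinase, fell by 0.34 (SE 0.07, FDR 0.00314). HCM1, a cell cycle transcription factor gene, fell by 0.22 (SE 0.04, FDR 0.00341). The levels of CIP1 did not overlap between the groups, as held for 0.311% of all genes.

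**Figure D4:**
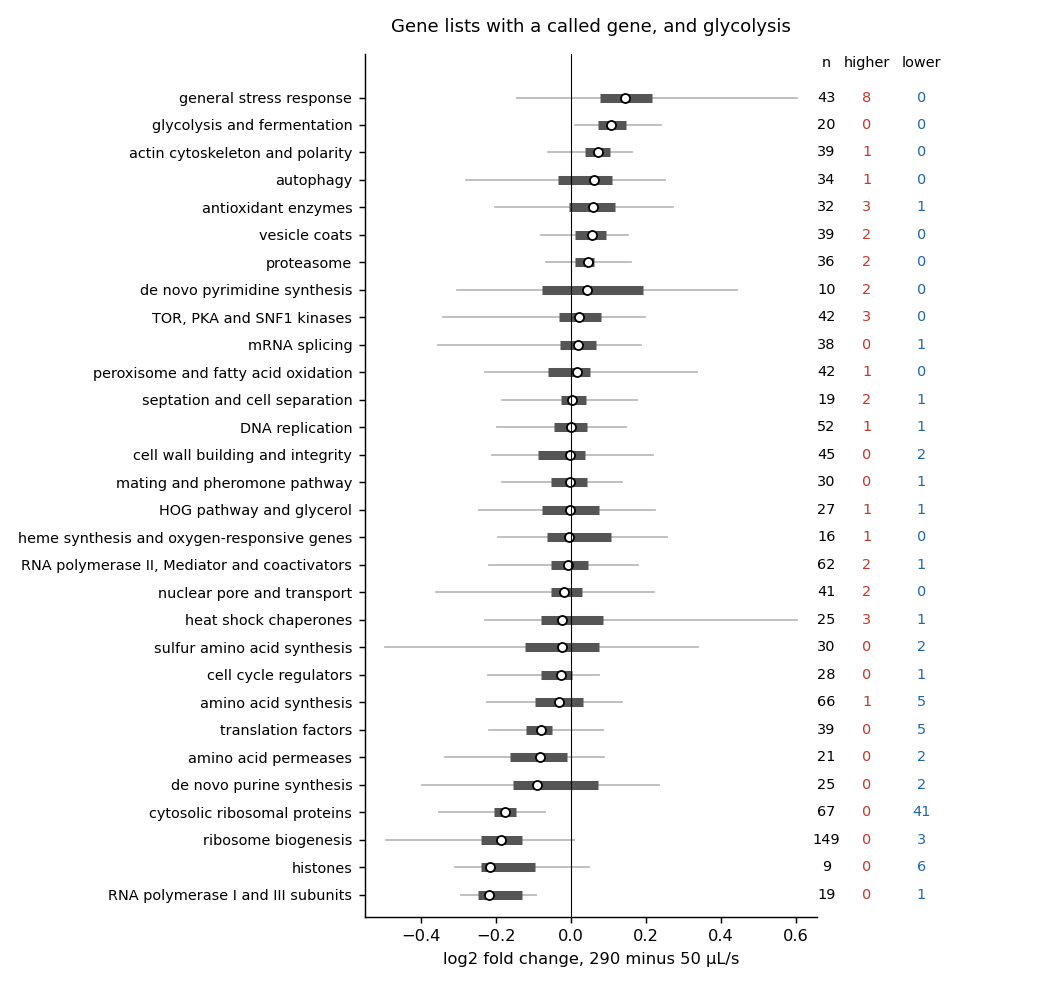
For each gene list with a called gene, and for glycolysis, the white point is the median log2 fold change of 290 over 50 µL/s, the thick bar spans the interquartile range and the thin line runs from the lowest to the highest. The columns at the right give the number of genes and the numbers called higher and lower, from 8 of 43 higher in the general stress response to 41 of 67 lower among cytosolic ribosomal proteins.

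Amino acid uptake and synthesis held several of the lower genes. MUP1 and MUP3, the high and low affinity methionine permeases, did not overlap between groups, as held for 4.5% of genes called lower and 0.311% of all genes. MUP1 lay between 398.3 and 505.1 CPM at 50 µL/s and between 321.7 and 390.1 CPM at 290 µL/s (-0.34, SE 0.07, FDR 0.00479). MUP3 lay between 54.24 and 77.60 CPM at 50 µL/s and between 44.93 and 54.17 CPM at 290 µL/s (-0.40, SE 0.07, FDR 0.00107). In B2T1 the difference of MUP3 was -0.002, and in the other 5 pairs it was -0.64 to -0.38. The branched-chain amino acid permease gene BAP2 fell by 0.29 (SE 0.05, FDR 0.00179), and so did STP4, a homolog of the factors that control such permeases (-0.33, SE 0.07, FDR 0.00536). Of 66 amino acid synthesis genes 5 fell (GLY1, LEU9, ILV2, LYS4 and HIS6) and 1 rose, the arginine gene ARG4. Over all genes 2.16% fell and 1.77% rose. GLY1, the threonine aldolase gene, went from a median of 171.7 to 145.5 CPM (-0.20, SE 0.03, FDR 0.000463) and LEU9, an isopropylmalate synthase gene, from 265.4 to 225.1 CPM (-0.22, SE 0.04, FDR 0.000972). Of the 30 genes of the sulfur amino acid list, which holds MUP1 and MUP3, these 2 were the only calls, 13 were positive and 17 negative, and the median was -0.03.

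The pathways that report on mechanical and osmotic load are set beside the 1.77% called higher and 2.16% called lower over all genes. Of 45 cell wall genes 2 fell and 0 rose, ECM33, a gene for an anchored wall protein (median 1805 to 1656 CPM; -0.15, SE 0.03, FDR 0.00573), and SUN4, a septation glucanase family gene (-0.21, SE 0.05, FDR 0.00655); PIR3 and the inducible glucan synthase gene GSC2 had changes of 0.22 (SE 0.06, FDR 0.0259) and 0.09 (SE 0.03, FDR 0.0364). KNH1, a gene of wall glucan synthesis, fell by 0.37 (SE 0.08, FDR 0.00549) from a low level, a median of 12.54 CPM. Of 27 HOG pathway and glycerol genes, SSK1, a response regulator gene upstream of HOG, fell from a median of 108.2 to 93.6 CPM (-0.20, SE 0.03, FDR 0.000555) and GCY1, a glycerol dehydrogenase gene, rose by 0.23 (SE 0.05, FDR 0.00726). The 19 genes of mechanosensitive and calcium signalling had 0 calls by edgeR, DESeq2 and limma-voom, 5 at an unadjusted p below 0.05, and fold changes from -0.19 to 0.09, among them the calcium channel gene CCH1 (-0.11, SE 0.04, FDR 0.102). The 31 genes of protein folding in the endoplasmic reticulum had 0 calls by edgeR (9 at an unadjusted p below 0.05; 1 called by DESeq2 and 0 by limma-voom) and fold changes between -0.15 and 0.12.

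A few genes of protein turnover, the cytoskeleton and signalling rose, in lists where most members did not pass, against 1.77% called higher over all genes. Of 36 proteasome genes 31 had a positive fold change and 11 were higher in 6 of 6 pairs, as were 222 of 5142 genes. The list had a median of 0.04 and 2 calls. RPT4, an ATPase subunit gene of the base, went from 321.4 to 372.4 CPM at 50 µL/s to 363.1 to 394.6 CPM at 290 µL/s (0.13, SE 0.03, FDR 0.00392), and RPN1, the largest base subunit, from a median of 696.6 to 734.0 CPM (0.12, SE 0.03, FDR 0.00655). In the actin list 35 of 39 were positive with a median of 0.07, and 1 rose, the myosin gene MYO4 (0.14, SE 0.03, FDR 0.00442). The cytokinesis genes MYO1 (0.18, SE 0.04) and IQG1 (0.12, SE 0.03) rose, and the levels of IQG1 did not overlap, at 164.8 to 171.5 CPM and 172.6 to 189.9 CPM. Such a lack of overlap held for 3.3% of genes called higher and 0.311% of all genes. Of 42 genes of the TOR, PKA and SNF1 kinases 3 rose and 0 fell: CDC25, the exchange factor that activates Ras (0.13, SE 0.02, FDR 0.00246), CYR1, the adenylate cyclase (0.17, SE 0.04), and REG1, a phosphatase subunit of glucose repression (0.14, SE 0.03). Outside that list TOS3, a gene for a kinase that acts on SNF1, fell by 0.35 (SE 0.06, FDR 0.00142). TAF7, a subunit of the general factor TFIID, went from 53.91 to 67.05 CPM at 50 µL/s to 70.41 to 75.14 CPM at 290 µL/s without overlap (0.23, SE 0.04, FDR 0.00147). SSN2, a Mediator subunit gene, rose by 0.18 (SE 0.04) and SWI1, a SWI/SNF subunit gene, fell by 0.17 (SE 0.04).

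In 21 of the 50 lists, with 504 genes, 0 were called by edgeR (96 at an unadjusted p below 0.05; 14 called by DESeq2 and 0 by limma-voom). They included the 24 citric acid cycle genes, the 29 respiratory chain genes, the 10 hexose transporter genes, the 28 ergosterol genes, the 23 iron uptake genes and the 30 genes under nitrogen control, and their medians lay between -0.06 and 0.11. Large fitted values in these lists came with wide errors: HXT2, a glucose transporter gene, had -0.51 (SE 0.24) with 146.5 to 581.2 CPM at 50 µL/s alone, and NDE1, a mitochondrial NADH dehydrogenase gene, had -0.39 (SE 0.18) with 101.1 to 665.9 CPM. Part of the spread followed the replicates. The median of the respiratory chain list was -0.32 in B1T3 and B2T3 and 0.02 to 0.17 in the other pairs. Within technical replicate 2 alone the ergosterol gene ERG5 was called by edgeR (0.78, SE 0.08, FDR 0.00139). Within technical replicate 3 alone NDE1 had the lowest FDR by edgeR, 5.62e-05, among 48 calls.

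The pair B1T1 stood apart from the other 5 in the size of these differences. The median difference of the 91 genes called higher was 0.01 in B1T1 and 0.17 to 0.30 in the other pairs, and that of the 111 called lower was -0.06 in B1T1 and -0.31 to -0.14 in the others. With both libraries of B1T1 left out 630 genes were called, and with those of B2T1 left out 48. In technical replicates 1, 2 and 3 fitted alone the medians were 0.12, 0.24 and 0.23 for the genes called higher and -0.18, -0.21 and -0.25 for those called lower. No gene had a speed difference that depended on the technical replicate at FDR 0.01 by edgeR (443 at an unadjusted p below 0.05; lowest FDR 0.358), or on the biological replicate (137; lowest FDR 0.999).

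The levels at the 2 intermediate speeds gave a comparison with libraries of their own. Between 210 and 130 µL/s, a step of 80 µL/s, edgeR called 0 genes (0% of those tested, with 103 at an unadjusted p below 0.05; 0 also by DESeq2 and limma-voom). In that step 68 of the 91 genes called higher at 290 µL/s had a positive change, with a median of 0.02, and 97 of the 111 called lower had a negative one, with a median of -0.04. Of all 5142 genes 2530 were positive and 2612 negative. In library number 210 came before 130 µL/s, as 290 came before 50 µL/s, so this step shares that order. Relative to 50 µL/s, which all 3 differences share, the genes called higher had medians of 0.07 at 130, 0.09 at 210 and 0.19 at 290 µL/s, and the genes called lower had medians of -0.07, -0.11 and -0.21. The genes were picked by their difference between 290 and 50 µL/s, which favors the largest median at 290 µL/s. The shared libraries pull the other 2 medians the same way, so the order of the 3 does not show a graded effect.

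The same genes differed between technical replicates. In the 12 libraries at 130 and 210 µL/s, none of which is in the compared pairs, technical replicate 3 against 1 gave 977 genes higher (19%) and 869 lower (16.9%). Of the 91 genes called higher at 290 µL/s, 89 had lower levels in technical replicate 3 and 79 were called lower there, and of the 111 called lower at 290 µL/s, 110 had higher levels in technical replicate 3 and 87 were called higher there. HSP12 differed by -0.95 and AMS1 by -0.77 between technical replicates 3 and 1, more than their rise with speed, and HHF1 by 0.43. URA2 (0.03) and RPL39 (0.07) differed little there, and these were the 2 genes that were also called when technical replicate was left out of the model. The libraries are numbered in 1 order, with 290, 210, 130 and 50 µL/s following each other within every replicate, so speed and a library's place in its set of 4 cannot be told apart. With the library number as a linear term in place of the technical replicate, 2 genes were called, URA2 (0.24, SE 0.03) and RPL39 (-0.35, SE 0.06), and the medians of the 202 called genes were 0.13 for those called higher and -0.16 for those called lower.

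**Figure D5:**
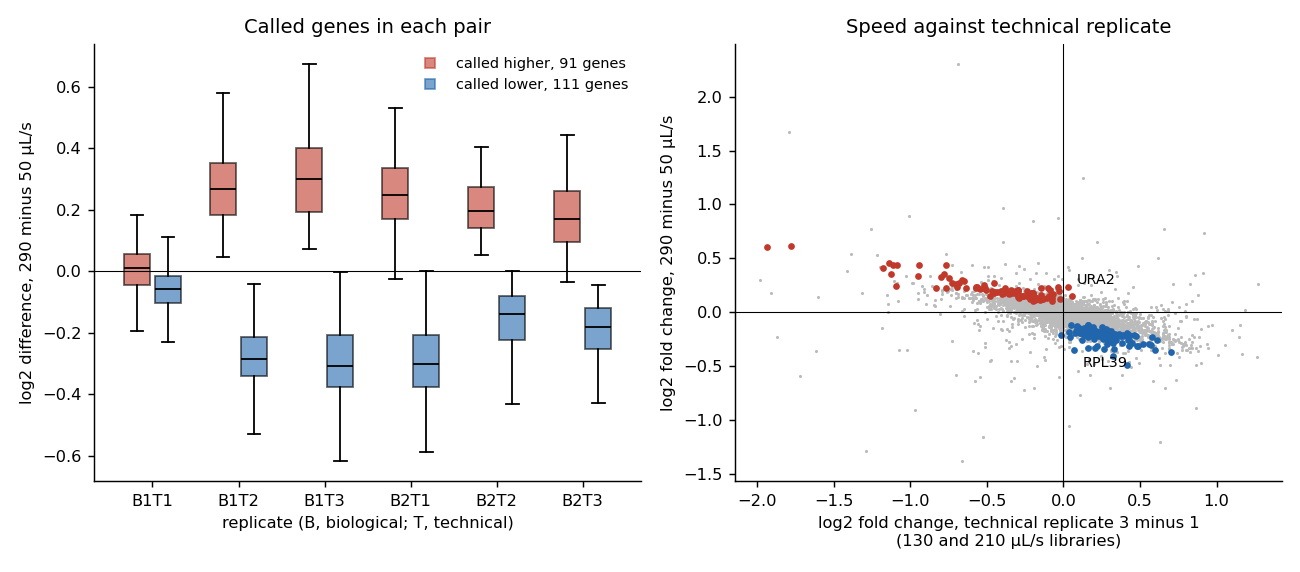
The left panel shows the log2 difference of 290 over 50 µL/s of the 91 genes called higher (red) and the 111 called lower (blue) in each pair, with boxes for the interquartile range, lines for medians and whiskers without outlying genes; the boxes of B1T1 lie nearest to 0. The right panel plots the fold change of 290 over 50 µL/s against that of technical replicate 3 over 1 in the libraries at 130 and 210 µL/s for the 5142 genes, and most called genes lie in the upper left and lower right quadrants, with URA2 and RPL39 near the vertical axis.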

How the data were processed

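Poly(A) RNA of 24 samples was sequenced, and the 12 at 290 and 50 µL/s are described. The authors trimmed reads with fastp 0.23.2, aligned them with STAR 2.7.10a to the W303 genome and estimated expected counts and TPM per gene with RSEM, and these deposited values were used here. Coding lengths and effective lengths came from the same deposited files (5193 genes, of which 5151 matched R64 names). No sequences are shown, because the reference at hand is R64, another build. Expected counts, 23.8% not whole, were rounded, and genes with an average count of at most 1 were left out. Groups came from the labels. The main test was edgeR 4.0.16 (R 4.3.3) with TMM, and alternatives used DESeq2 1.42.0 and limma 3.58.1. With 2 cultures, p-values cover mostly the spread between technical replicates.

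Named genes had FDR below 0.01, a mean of at least 5 CPM and all 6 pairs in 1 direction: the 12 largest changes and the 5 lowest p per direction and 2 per list, with other list members added. The comparison and the 50 gene lists were chosen with earlier results of these data known. Pairs share a culture and a replicate number, and the deviations from the speed means of paired libraries correlated with r of 0.16 to 0.642. For B2T1 and B2T3 the best match at 50 µL/s was not the partner but B1T1 and B1T3, of the other culture. Fits were tested on simulated data.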

Additional observations from a re-analysis of the deposited data

Results flagged for a closer look

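Among the named genes, 106 groups of 6 libraries were examined for a single library far from the rest, and chance marks about 1 group in 20. In the 50 µL/s group CLN3 stood at 181.0 CPM in B2T3, against 128.4 to 144.9 CPM in the other 5 libraries (gap to the nearest over the whole range 0.687, past Dixon's critical value). In the 290 µL/s group UPS3, a homolog of mitochondrial lipid transfer genes, stood at 13.67 CPM in B2T3, against 11.56 to 12.22 CPM in the others (0.688).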

How the results depend on the processing

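The count of 202 genes was recomputed under 42 alternatives. It fell to 2 with speed and biological replicate as the only terms (no technical replicate block), to 0 with no replicate block, to 0 in the 12 libraries alone with both replicate terms (8 at FDR 0.05) and to 0 there with the 6 pairs as a replicate block, and rose to 334 with the 6 biological by technical replicate combinations as a replicate block over 24 libraries. DESeq2 gave 383 and an FDR of 0.05 gave 685. Mean fragment length as a covariate gave 7 and library number in place of technical replicate gave 2. Fits within technical replicates 1, 2 and 3 gave 0, 11 and 48, and within biological replicates 1 and 2 gave 0 and 268. Leaving out 1 library gave 70 (without B1T2 at 290 µL/s) to 446 (without B1T1 at 290 µL/s). Leaving out both libraries of a pair gave 630 without B1T1, 67 without B1T2, 50 without B1T3, 48 without B2T1, 109 without B2T2 and 106 without B2T3. Leaving out the ribosomal protein genes gave 125. The cause of these moves was not tested. The count stayed within 1.5 times of 202 under limma-voom (222), the older quasi-likelihood fit (217), DESeq2 size factors (211), total counts (234), no filter (202), edgeR's own filter (204), unrounded counts (202) and offsets by coding length (171) or effective length (163). The pairs left out, the ribosomal protein genes left out and the effective length offset were chosen after seeing the data. In each of the 42 alternatives that tested them, the called genes kept the sign of their fold change. These fits reused libraries by which the genes were picked, so a kept sign was likely beforehand. In the single pair B1T1, 48 of the 91 genes called higher and 25 of the 111 called lower had a positive difference. The comparison of 210 with 130 µL/s stayed at 0 in the alternatives run for it. Genes at low levels are limited by depth, and the median SE over all genes was 0.05.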
